A study of Mus musculus with 112 samples.

Results

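The Dlk1-Meg3 imprinted locus was followed across 112 mouse bead arrays through the probes whose symbol names Dlk1, Meg3 or Rian. Of these 3 genes, 2 have a probe under a current or older symbol: Dlk1 has 2 probes and Meg3 has 5 (2 of them under its older name Gtl2), so the locus takes up 7 of the 45281 probes. Rian was not analysed here. In the RefSeq annotation of GRCm38.p6 the genes lie on chromosome 12, on the forward strand, with Dlk1 (gene ID 13386, protein coding) at 109452485 to 109463336, Meg3 (gene ID 17263, a long non-coding RNA) at 109540996 to 109571729 and Rian (gene ID 75745, a long non-coding RNA) at 109603945 to 109661716.

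Dlk1 encodes a membrane protein with EGF-like repeats that is related to the Notch ligands, and it is transcribed from the paternal chromosome. Meg3 and Rian are transcribed from the maternal chromosome, where the differentially methylated region between Dlk1 and Meg3 lacks the methylation that the paternal copy carries. Some mouse induced pluripotent stem cell lines are known to silence the maternal transcripts of this locus, which has made Meg3 a widely used measure of the quality of reprogramming.

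The arrays cover 65 cultures of 18 epiblast stem cell (EpiSC) lines, pluripotent lines derived from the post-implantation embryo, of strain R1-129. The lines come from cavity (CAV, E5.5 to E6.0), prestreak (PS, E6.0 to E6.5), late midstreak (LMS, E6.75 to E7.5), early bud (EB, E7.5 to E8.0) and late bud (LB, E7.75 to E8.25) embryos, at passages 10 to 19, and 4 of them also have a subline (marked with an asterisk), grown from a separate thaw of cells from that embryo. EB1a and EB1b are sister lines and count as 2 of the 18 lines. Each line or subline was grown as 3 separate cultures, with 2 arrays for PS4. The other cultures were 3 of the imported line EpiSC9 (strain 129SvJ, passage 24), 9 of induced pluripotent stem cells (iPSC, 3 lines made from tail tip fibroblasts of (C57BL6xC3H)F1 hybrid mice), 3 of embryonic stem cells (ESC, R1-129, passage 22) and 2 of mouse embryonic fibroblasts (MEF, strain ARC/s). RNA of 17 single R1-129 epiblasts, dissected at 7 stages, was amplified before labelling, and so was RNA of 12 cultures of 4 EpiSC lines. The design holds a single line of ESC, of EpiSC9 and of MEF, and their spread between lines is therefore assumed to be that of the other groups. EpiSC were grown on a fibroblast layer.

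Levels are log2 values after background correction and quantile normalization, detection means a detection p under 0.01 against the negative control beads, and a gene passed a test when limma's adjusted p was under 0.05. On unamplified arrays 32.7% to 41.1% of the probes were detected, and on amplified ones 21.3% to 32.7%. Some libraries stood apart. The 3 arrays labelled iPSC3 correlated with the ESC arrays at r between 0.994 and 0.996 over 12214 genes, against 0.923 to 0.946 for iPSC1 and 0.927 to 0.946 for iPSC2, so results on iPSC are given with and without them. Dppa3, a germline and naive pluripotency gene, was at 10.61, 10.83 and 10.79 in the arrays labelled iPSC3 and at 10.84, 10.67 and 10.80 in ESC, but at 4.61 to 7.15 in iPSC1 and iPSC2. Culture 1 of iPSC1 and of iPSC2 also differed from the others of its line. The arrays were clustered on probes near background, with the number of sets fixed at 7. ESC and iPSC share a set that holds no EpiSC, so that ESC or iPSC identity and array set cannot be told apart. Pou5f1, the defining pluripotency factor, was detected in all 65 EpiSC cultures and in neither MEF culture, and Fgf5, a marker of post-implantation epiblast, was at 6.41 to 10.50 in EpiSC and at 6.07 to 6.39 in ESC, where it was detected in all 3 cultures.

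The annotated start regions of both genes are shown because Dlk1 and Meg3, although neighbours, had different level patterns in the cultures described next. The RefSeq windows (GRCm38.p6, forward strand, 250 bases upstream and 50 downstream of an annotated start) are chr12:109452573-109452872 for Dlk1 and chr12:109540746-109541045 for the first of 2 Meg3 starts; the Dlk1 start of this table lies inside the annotated span of the gene. Capitals mark matches, on either strand, to TGACGTCA (the cAMP response element), TATAAA (the TATA box), CCAAT and TGCCGC (the core of the ZFP57 motif).
Dlk1: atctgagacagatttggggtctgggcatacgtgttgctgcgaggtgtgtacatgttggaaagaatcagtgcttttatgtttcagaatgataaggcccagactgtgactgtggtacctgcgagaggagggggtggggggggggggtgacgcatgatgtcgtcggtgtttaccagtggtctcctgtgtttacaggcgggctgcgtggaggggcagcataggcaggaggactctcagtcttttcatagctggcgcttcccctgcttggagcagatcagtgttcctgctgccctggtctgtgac
Meg3: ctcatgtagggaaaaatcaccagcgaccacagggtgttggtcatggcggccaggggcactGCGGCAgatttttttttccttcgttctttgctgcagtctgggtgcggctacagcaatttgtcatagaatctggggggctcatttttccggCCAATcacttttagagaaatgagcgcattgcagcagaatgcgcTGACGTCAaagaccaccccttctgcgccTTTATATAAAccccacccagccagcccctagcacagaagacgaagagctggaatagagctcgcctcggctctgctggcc
The Dlk1 window holds none of the 4 motifs. The Meg3 window holds TGACGTCA at -57 to -50 from the start, CCAAT at -100 to -96, TGCCGC on the reverse strand at -190 to -185, and overlapping TATAAA matches at -25 to -20 on the forward strand and at -29 to -24 on the reverse strand. Of all 32851 windows of this length in the table, 1.79% hold TGACGTCA, 13.6% TATAAA, 37.4% CCAAT and 11.6% TGCCGC. The Dlk1 window has 9 CpG and the Meg3 window 13, with a median of 7 over all windows.

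The first comparison asked how the locus differs between EpiSC and ESC. Both genes were higher in EpiSC. Over the 65 EpiSC cultures Dlk1 ran from 9.89 to 13.06 with a median of 11.30, against 7.86, 8.02 and 8.08 in the ESC cultures. No EpiSC culture overlapped the ESC range. As line means, Dlk1 averaged 11.33 ± 0.68 in EpiSC (SD, n = 18 lines), against 7.99 in the 1 ESC line, a log2 difference of 3.34 ± 0.62 (SE; 10.1-fold) with an adjusted p of 0.000362. Meg3 ran from 9.69 to 10.99 in EpiSC cultures with a median of 10.47, against 6.97, 6.76 and 6.85 in ESC. Every EpiSC culture was again above every ESC culture. The Meg3 difference was 3.60 ± 0.53 (SE; 12.2-fold, adjusted p = 2.45e-05). Of the 14622 genes tested in this comparison, 26.6% passed.

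**Figure D1:**
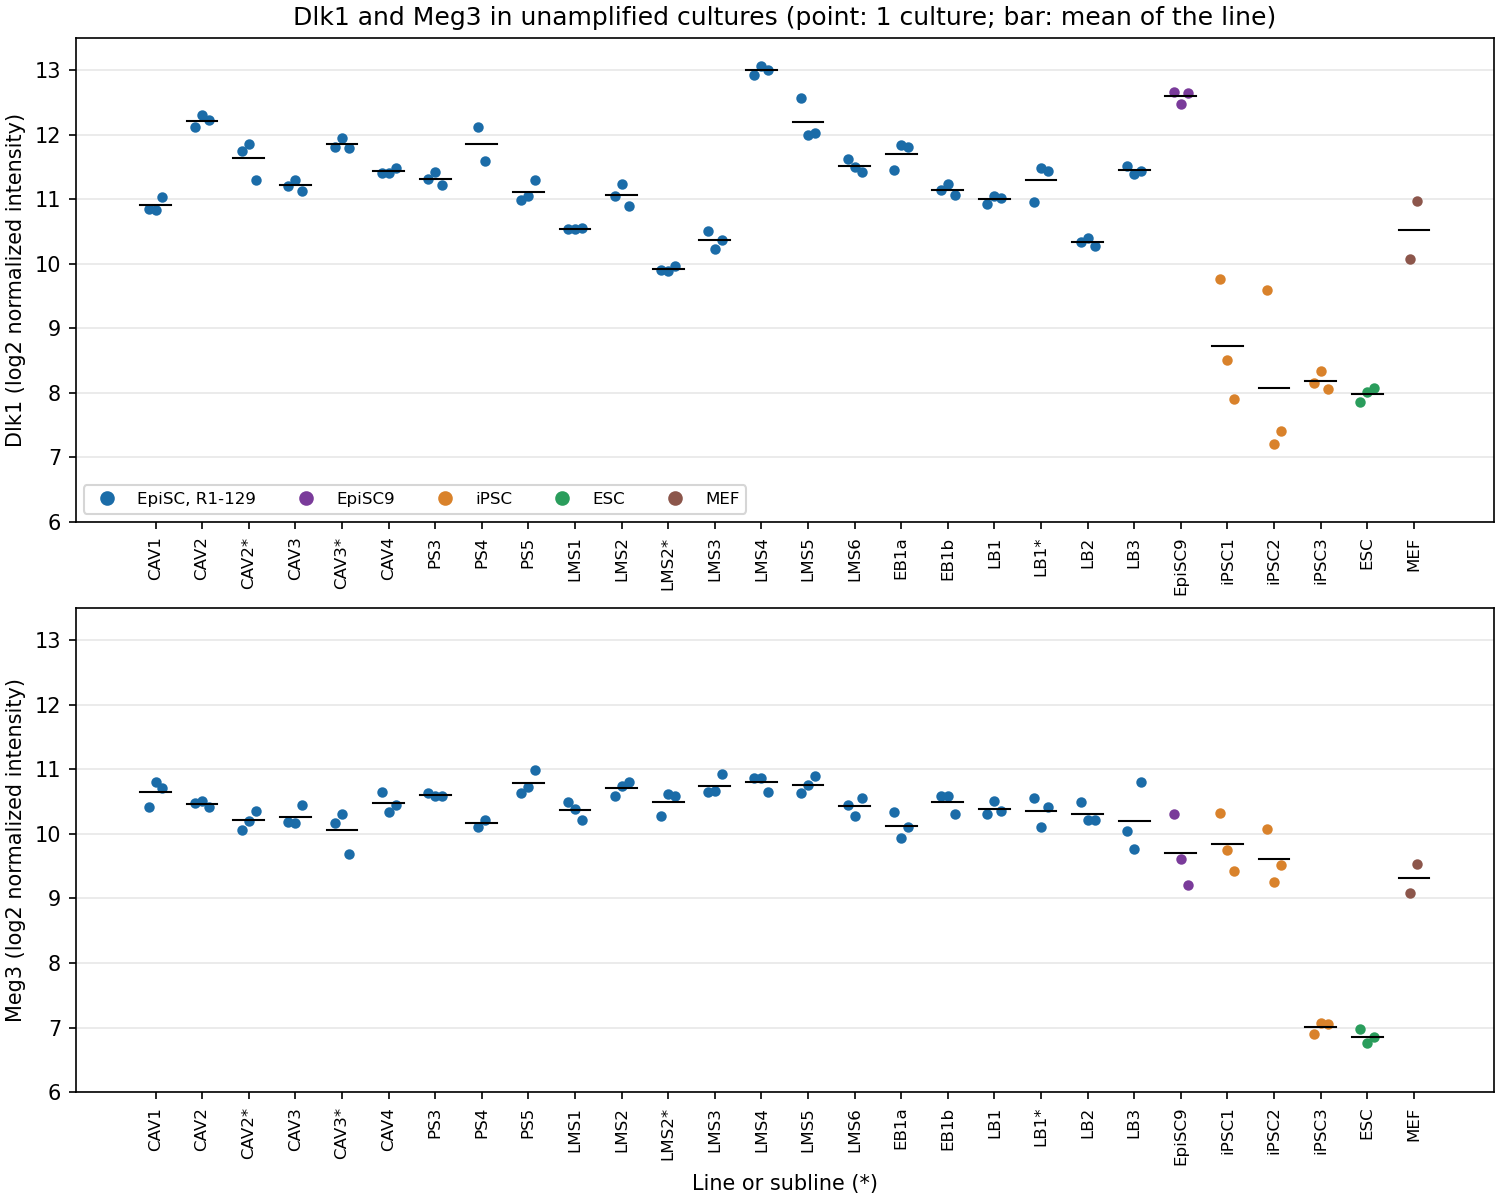
Dlk1 (top) and Meg3 (bottom) as log2 normalized intensity in each unamplified culture (points) with the mean of each line or subline (bars), EpiSC lines at left in order of stage, then EpiSC9, iPSC, ESC and MEF. Dlk1 spans 9.89 to 13.06 across EpiSC cultures while Meg3 stays between 9.69 and 10.99, and the arrays labelled iPSC3 lie beside ESC for both genes.

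Other probes of the members bear on this. The second Dlk1 probe, detected in all 65 EpiSC and in 2 of 3 ESC cultures, gave 3.74 ± 0.70 (SE, adjusted p = 0.000379). The Meg3 result rests on 1 of its 5 probes, the Gtl2 probe detected on all 112 arrays. The second Gtl2 probe was detected in 55 of 65 EpiSC cultures, at a median of 5.74, and in 0 of 3 ESC cultures, so that ESC gives only a bound: it was at least 1.35-fold higher in EpiSC, and its test did not pass (adjusted p = 0.0591). A Meg3 probe detected in 20 of 65 EpiSC and 0 of 3 ESC cultures gives no fold, and its adjusted p was 0.149. A bound takes, for each undetected array, the higher of its lowest detected signal and the probe's own. Of the remaining Meg3 probes, 1 was detected on 10 arrays, all but 1 of them amplified, and 1 on none.

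The iPSC lines separated the 2 genes. Dlk1 was at 9.76, 8.51 and 7.91 in the cultures of iPSC1, at 9.60, 7.21 and 7.41 in iPSC2 and at 8.15, 8.34 and 8.06 in those labelled iPSC3, against 7.86 to 8.08 in ESC. In iPSC1 and iPSC2 culture 1 was the highest, and the iPSC and ESC ranges overlapped. Meg3 was at 10.33, 9.75 and 9.43 in iPSC1, at 10.07, 9.26 and 9.51 in iPSC2 and at 6.90, 7.07 and 7.06 in the arrays labelled iPSC3, against 6.76 to 6.97 in ESC. Meg3 in iPSC1 and iPSC2 therefore lay above every ESC culture, and in the arrays labelled iPSC3 it overlapped ESC.

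Against iPSC, EpiSC had more of both transcripts. Dlk1 was higher by 3.00 ± 0.38 (SE; 8.02-fold, adjusted p = 1.09e-06, 18 against 3 line means) and Meg3 by 1.65 ± 0.32 (3.13-fold, adjusted p = 0.000264), where 42.5% of 14827 genes passed. Without the arrays labelled iPSC3 the Meg3 difference was 0.74 ± 0.17 (adjusted p = 0.00152) and that of Dlk1 2.93 ± 0.46 (adjusted p = 3.19e-05). Without culture 1 of iPSC1 and iPSC2 they were 1.80 ± 0.30 and 3.43 ± 0.38, and both passed.

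Against ESC, iPSC taken as 3 lines showed no gene past the threshold: 0% of 12214 genes passed with limma, while 1139 had an unadjusted p under 0.05. Meg3 differed by 1.96 ± 0.59 (SE, adjusted p = 0.336) and Dlk1 by 0.34 ± 0.70 (adjusted p = 0.933). The Meg3 difference passed with cultures as the unit and the line as a block (adjusted p = 0.00245) and with the array set as a block (adjusted p = 0.0443), where 1.97% and 1.24% of genes passed. Without the arrays labelled iPSC3, Meg3 was higher in iPSC by 2.86 ± 0.28 (adjusted p = 5.32e-08), where 11.9% of genes passed. Tested line by line over cultures, Meg3 was higher in iPSC1 by 2.97 ± 0.19 (adjusted p = 7.41e-21, 51.1% of 11541 genes passed) and in iPSC2 by 2.75 ± 0.19 (adjusted p = 2.91e-19, 48.8% of 11390 genes). The arrays labelled iPSC3 differed from ESC by 0.15 ± 0.19 for Meg3 and 0.19 ± 0.28 for Dlk1, both with an adjusted p of 1, and 0.0179% of 11202 genes passed. Dlk1 was higher in iPSC1 by 0.74 ± 0.28 (adjusted p = 0.0214). Without culture 1 of every group, ESC included, it was higher by 0.16 ± 0.15, which did not pass (adjusted p = 0.387). In iPSC2 Dlk1 differed by 0.09 ± 0.28 (adjusted p = 0.824). Without culture 1 of every group, ESC included, Dlk1 in iPSC2 was lower than in ESC by 0.75 (SE 0.15, adjusted p = 5.48e-05).

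Other transcripts of the locus were near background in these cells. Rtl1, a retrotransposon-derived gene expressed from the paternal chromosome, was detected in all 6 cultures of iPSC1 and iPSC2, at 5.37 to 5.87, and in none of the 3 ESC cultures or the 3 labelled iPSC3, at 4.63 to 4.87. Dio3, the deiodinase gene at the far end of the imprinted domain, was detected in 13 of 65 EpiSC, 3 of 9 iPSC and 2 of 3 ESC cultures. The visceral endoderm marker Ttr was detected in all cultures of iPSC1 and iPSC2, at 6.03 to 8.87, and not in ESC or the arrays labelled iPSC3. Of the visceral endoderm list 5 of 5 genes tested were higher than in ESC in iPSC1 and 5 of 5 in iPSC2, where 51.1% and 48.8% of all genes passed. Dcn, a fibroblast matrix gene, was at 11.37 to 12.65 in iPSC1 and iPSC2 and at 7.37 to 8.05 in the arrays labelled iPSC3, against a median of 7.58 in ESC, and Lum, another, was at 8.63 to 10.33 in iPSC1 and iPSC2 and at 4.69 to 4.92 in those labelled iPSC3, against 4.83 to 5.54 in ESC. Over the fibroblast list 5 of 16 genes tested were higher and 2 lower in iPSC1, and likewise in iPSC2. Dcn and Lum were thus high in the iPSC lines in which Meg3 was high, and Meg3 was at 9.09 and 9.53 in MEF. Col1a1 of the same list was at 7.56 to 9.39 in iPSC1 and 7.71 to 9.26 in iPSC2, against 9.13 to 9.35 in ESC. In iPSC1 and in iPSC2, culture 1 had the highest Meg3 and the lowest mean of the fibroblast list, at 8.14 and 8.37. In culture 3 that mean was 9.15 and 9.04. The part of these markers in the levels of the locus was not tested.

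Fibroblasts expressed both genes. Dlk1 was at 9.89 to 13.06 in EpiSC cultures, against 10.07 and 10.97 in MEF, and the ranges overlapped. The difference of 0.81 ± 0.62 (SE) did not pass (adjusted p = 0.298), and it was 0.62 ± 0.60 (adjusted p = 0.424) among arrays of the set that holds both groups. Meg3 was at 9.69 to 10.99 in EpiSC cultures, against 9.09 and 9.53 in MEF, so that the groups did not overlap. Its difference of 1.15 ± 0.53 did not pass over all lines (adjusted p = 0.0798). Within that array set it was 1.02 ± 0.20 and passed (adjusted p = 0.00564). With 1 MEF culture left, the Meg3 difference was 1.37 without culture 2 and smaller than 1.15 without culture 1. The share of genes past the threshold was 44.8% of 14416.

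Since EpiSC were lifted from a fibroblast layer, the 17 genes of a fibroblast list were read on the same arrays. Summed on the linear scale they came to 12600 to 52900 in EpiSC cultures, 16700 to 17600 in EpiSC9, 14100 to 24000 in iPSC, 22900 to 24500 in ESC and 112000 to 117000 in MEF. Of the 17, 13 were detected in every EpiSC culture, 15 in every ESC culture and 16 in both MEF cultures. The matrix proteoglycan gene Lum was at 7.18 to 11.44 in EpiSC, detected in all 65, and in ESC it was detected in 1 of 3 cultures. The collagen gene Col1a1 was at 7.18 to 10.77 in EpiSC, at 9.13 to 9.35 in ESC and at 12.52 to 12.69 in MEF. Across the 18 EpiSC line means the mean of the list had r = 0.12 with Dlk1 and r = -0.11 with Meg3, points that share the feeder layer and the array sets. In whole cultures, fewer cells of a type and less RNA per cell cannot be told apart.

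**Figure D2:**
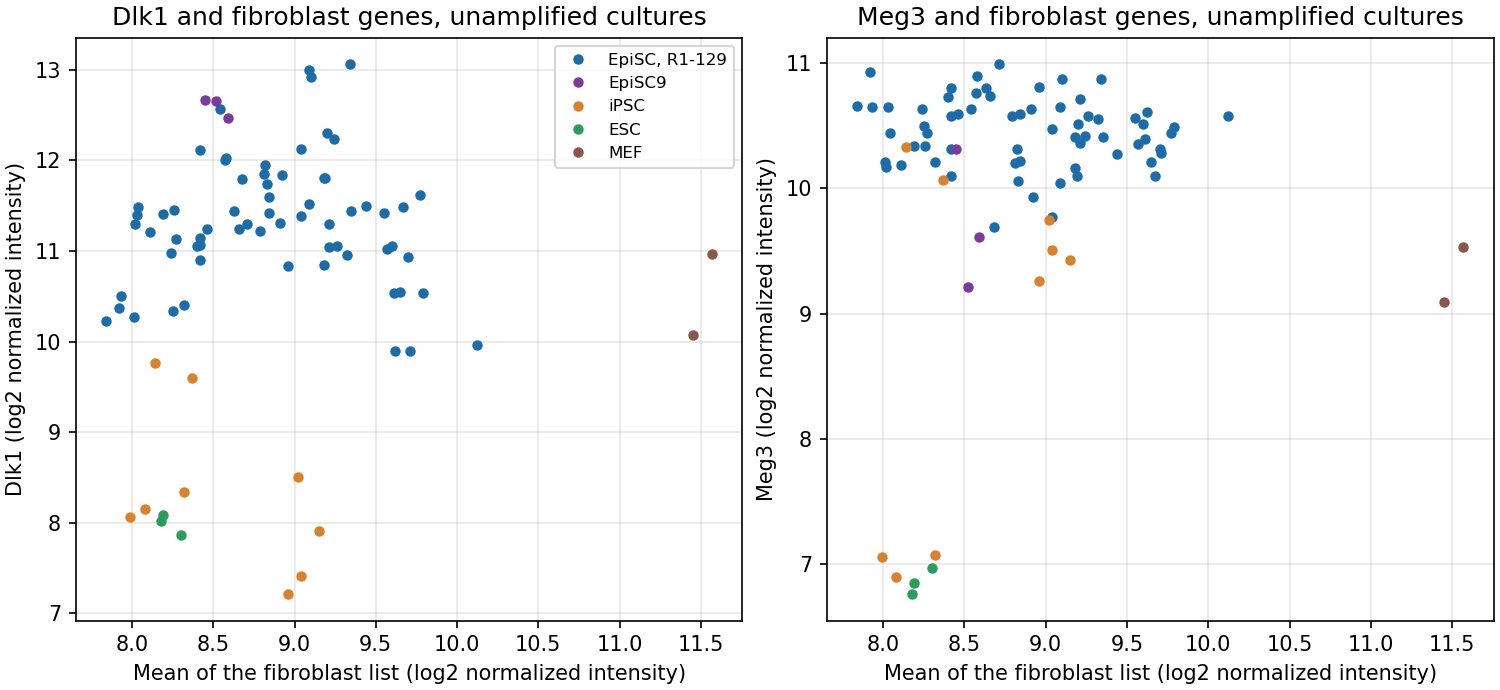
Dlk1 (left) and Meg3 (right) against the mean log2 level of the 17 fibroblast genes, each point 1 unamplified culture coloured by cell type. EpiSC cultures spread from 7.84 to 10.12 on the fibroblast axis with no visible trend in either gene, and MEF lie at 11.45 and 11.57.

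The imported line EpiSC9 was set against the 18 R1-129 lines. Dlk1 was at 12.66, 12.47 and 12.65 in EpiSC9 cultures, against 10.34 to 12.99 as line means in R1-129 EpiSC, where LMS4 alone was higher. Meg3 was at 10.31, 9.61 and 9.21 in EpiSC9, and its mean of 9.71 lay below the lowest R1-129 line mean of 10.13. Neither difference passed: Dlk1 was 1.26 ± 0.62 (SE, adjusted p = 0.404) and Meg3 -0.75 ± 0.53 (adjusted p = 0.6). In this comparison 1.66% of 14460 genes passed. Among arrays of the set that holds both, the values were 1.46 ± 0.60 and -0.62 ± 0.19.

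Among the R1-129 lines Dlk1 varied more than Meg3 did on the Gtl2 probe detected throughout. Line or subline means of Dlk1 ran over 3.08 log2 units (F test over 22 lines and sublines, adjusted p = 2.47e-27). Those of Meg3 ran over 0.75 (adjusted p = 1.73e-05), but 92.9% of 14339 genes passed this test. Its unit was the culture, so its p measures the spread between cultures of a line. Between lines of different array sets, line and set cannot be told apart. The SD between the 22 means was 0.69 for Dlk1, against 0.16 within lines, and 93.8% of the genes tested had a lower SD between lines. For Meg3 it was 0.23, against 0.20 within lines, and 28.3% of genes had a lower one. The medians over all genes were 0.30 between and 0.20 within lines. Dimmer Meg3 probes spanned more: means of the second Gtl2 probe ran over 2.27 units (adjusted p = 5.07e-13), lowest in CAV2 at 4.99 with 1 of 3 cultures detected and highest in LMS4 at 7.27, and those of the probe detected in 20 of 65 EpiSC cultures over 1.13 (adjusted p = 3.28e-05).

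The highest Dlk1 levels were those of LMS4, at 12.92, 13.06 and 13.00. Next came CAV2 with a mean of 12.22 ± 0.09 and LMS5 with 12.20 ± 0.32 (SD, n = 3 cultures each), then PS4 with 11.85 ± 0.37 (n = 2 cultures), the CAV3 subline with 11.85 ± 0.09 and EB1a with 11.70 ± 0.22. These 5 overlapped with their neighbours in the order, and LMS4 overlapped with none.
From 11.63 in the CAV2 subline down to 10.91 in CAV1 lay LMS6, LB3, CAV4, PS3, the LB1 subline, CAV3, EB1b, PS5, LMS2 and LB1, each overlapping the next. The lowest levels belonged to the LMS2 subline, at 9.89 to 9.96, below LB2 with a mean of 10.34 ± 0.07, LMS3 with 10.37 ± 0.13 and LMS1 with 10.54 ± 0.01 (SD, n = 3 each). In the order of the 22 means, 17 of the 21 neighbouring pairs overlapped in their cultures, and the 4 gaps lay above the LMS2 subline, on either side of LMS1 and below LMS4. For Meg3, on the probe detected throughout, all 21 neighbouring pairs overlapped, with the CAV3 subline lowest at a mean of 10.05 ± 0.32 and LMS4 highest at 10.80 ± 0.13 (n = 3 each).

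Neither gene differed past the threshold between lines grouped by the stage of their embryo. Dlk1 averaged 11.45 ± 0.42 in 4 cavity lines, 11.43 ± 0.38 in 3 prestreak, 11.35 ± 1.08 in 6 late midstreak, 11.42 ± 0.39 in 2 early bud and 10.98 ± 0.58 in 3 late bud lines (SD over lines). Late midstreak lines spanned 10.37 to 12.99 and so held both the highest line and nearly the lowest. The stage means ran over 0.47 log2 units, with an adjusted p of 0.97 in limma's F test. Meg3 averaged 10.40 ± 0.20, 10.51 ± 0.32, 10.61 ± 0.19, 10.31 ± 0.26 and 10.29 ± 0.08 in the same order of stages, over 0.32 units (adjusted p = 0.797). Of 14339 genes, 0.0139% passed. The 2 early bud lines are the sister lines EB1a and EB1b, so their SD may not be a spread between embryos. Neither gene passed with EB1a and EB1b as 1 line.

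Across lines no relation between the 2 genes was detected. Over 18 line means Pearson's r was 0.03 (permutation p = 0.905) and Spearman's rho -0.14 (permutation p = 0.592). Without LMS4 and LB2, the 2 lines farthest from the median of Dlk1, r was -0.37 (permutation p = 0.159) and rho -0.47 (permutation p = 0.0648). This was the single relation tested, the other correlations being descriptions without a p, and 100000 permutations were drawn each time.

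**Figure D3:**
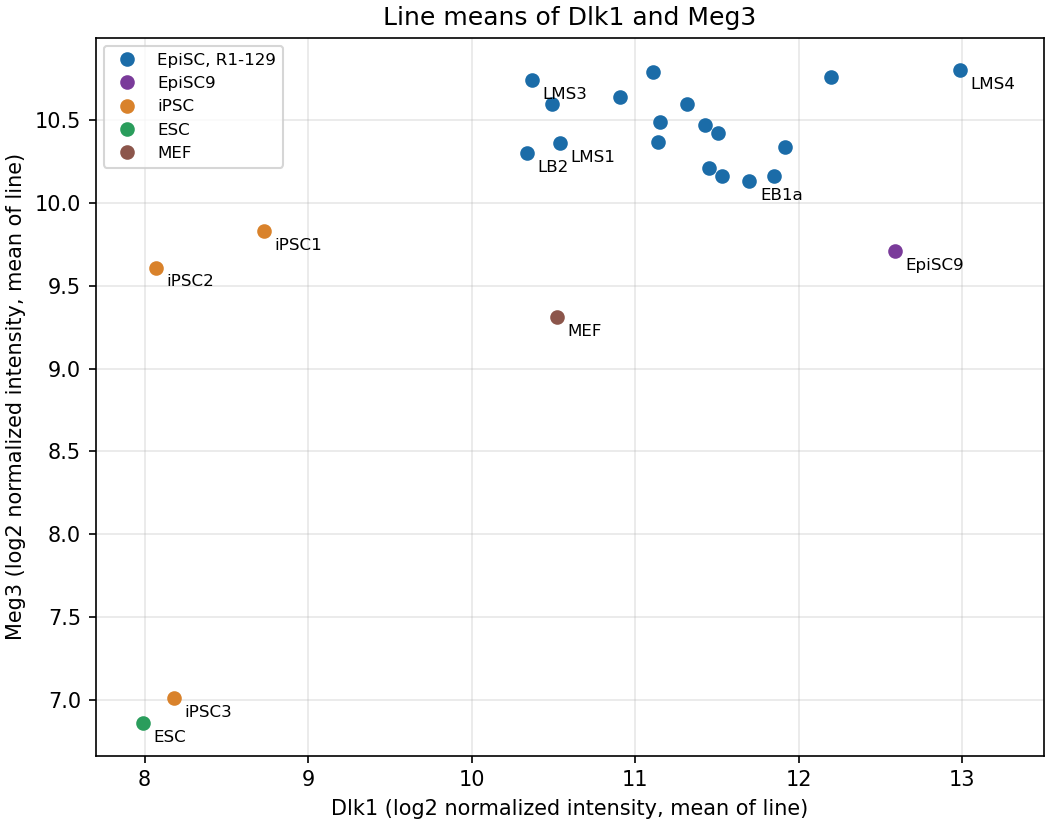
Mean Meg3 against mean Dlk1 of each line (log2 normalized intensity), sublines averaged with their line. The 18 R1-129 EpiSC lines spread along Dlk1 from 10.34 to 12.99 at Meg3 levels of 10.13 to 10.80, iPSC1 and iPSC2 have Meg3 above 9.60 with Dlk1 of 8.73 and 8.07, and ESC and iPSC3 are low for both.

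By likeness over the 22 line and subline means, the genes closest to Dlk1 were Lypd1 (r = 0.92), the tau gene Mapt (0.90), the thyroid hormone receptor gene Thra (0.90), the regulator of G protein signalling Rgs7 (0.89) and the adhesion receptor gene Adgrb3 (0.88). Mapt means ran from 4.47 to 10.53, a wider span than that of Dlk1. For Meg3 they were the non-coding host gene Snhg11 (0.76), Prpf40b (0.74), the kinase gene Camk2a (0.73), the dynein gene Dync2h1 (0.70) and the inositol trisphosphate receptor gene Itpr2 (0.69). These correlations are descriptions over means that share array sets. Means of Camk2a ran from 4.70 to 5.61, near background. The lowest means of Lypd1, Mapt, Rgs7 and Adgrb3 were near background too, at 4.52, 4.47, 4.38 and 4.34. Meg3 itself had an SD of 0.23 between and 0.20 within lines.

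Sublines of the same embryo differed from their line in Dlk1. Dlk1 was at 11.74, 11.85 and 11.30 in the CAV2 subline, against 12.12, 12.30 and 12.23 in CAV2, and fell by 0.59 (SE 0.13, adjusted p = 0.00014, 51.5% of 11877 genes passed). It was at 11.81, 11.95 and 11.79 in the CAV3 subline, against 11.21, 11.30 and 11.13 in CAV3, and rose by 0.63 (SE 0.13, adjusted p = 4.57e-05, 52% of 11947). It was at 9.90, 9.89 and 9.96 in the LMS2 subline, against 11.05, 11.24 and 10.90 in LMS2, and fell by 1.15 (SE 0.13, adjusted p = 2.60e-10, 45.5% of 11797). The cultures of these 3 pairs did not overlap.
In the LB1 subline, at 10.95, 11.48 and 11.44 against 10.93, 11.05 and 11.02 in LB1, cultures overlapped and the difference of 0.29 ± 0.13 did not pass (adjusted p = 0.0672, 39.5% of 11557 genes passed). Without culture 1 of both, the LB1 difference was 0.43 and passed (adjusted p = 0.0106). The effect differed between the 4 pairs (interaction F test, adjusted p = 6.10e-12, 54.5% of 14339 genes passed). Meg3 differed by -0.26 ± 0.16 in the CAV2, -0.21 ± 0.16 in the CAV3, -0.22 ± 0.16 in the LMS2 and -0.04 ± 0.16 in the LB1 pair, with adjusted p between 0.161 and 0.861. Its cultures overlapped in all of these pairs but CAV2, where the subline was lower. Its interaction test gave an adjusted p of 0.796. The second Gtl2 probe was at a mean of 5.13 in the LMS2 subline (1 of 3 cultures detected), against 6.24 in LMS2 (3 of 3), and fell by 1.12 (SE 0.19, adjusted p = 2.96e-06). Each subline was measured in another array set than its line, so set and subline cannot be told apart. The fibroblast list moved in these pairs too: in the subline 2 of 16 genes tested rose and 5 fell in the CAV2 pair (median -0.26), 10 of 15 rose and 0 fell in CAV3 (0.76), 14 of 16 rose and 0 fell in LMS2 (1.01), and 0 rose and 1 of 16 fell in LB1 (-0.18). Of 4 visceral endoderm genes tested, 3 fell in each of the CAV3 and LMS2 sublines. Their part in the Dlk1 differences was not tested.

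**Figure D4:**
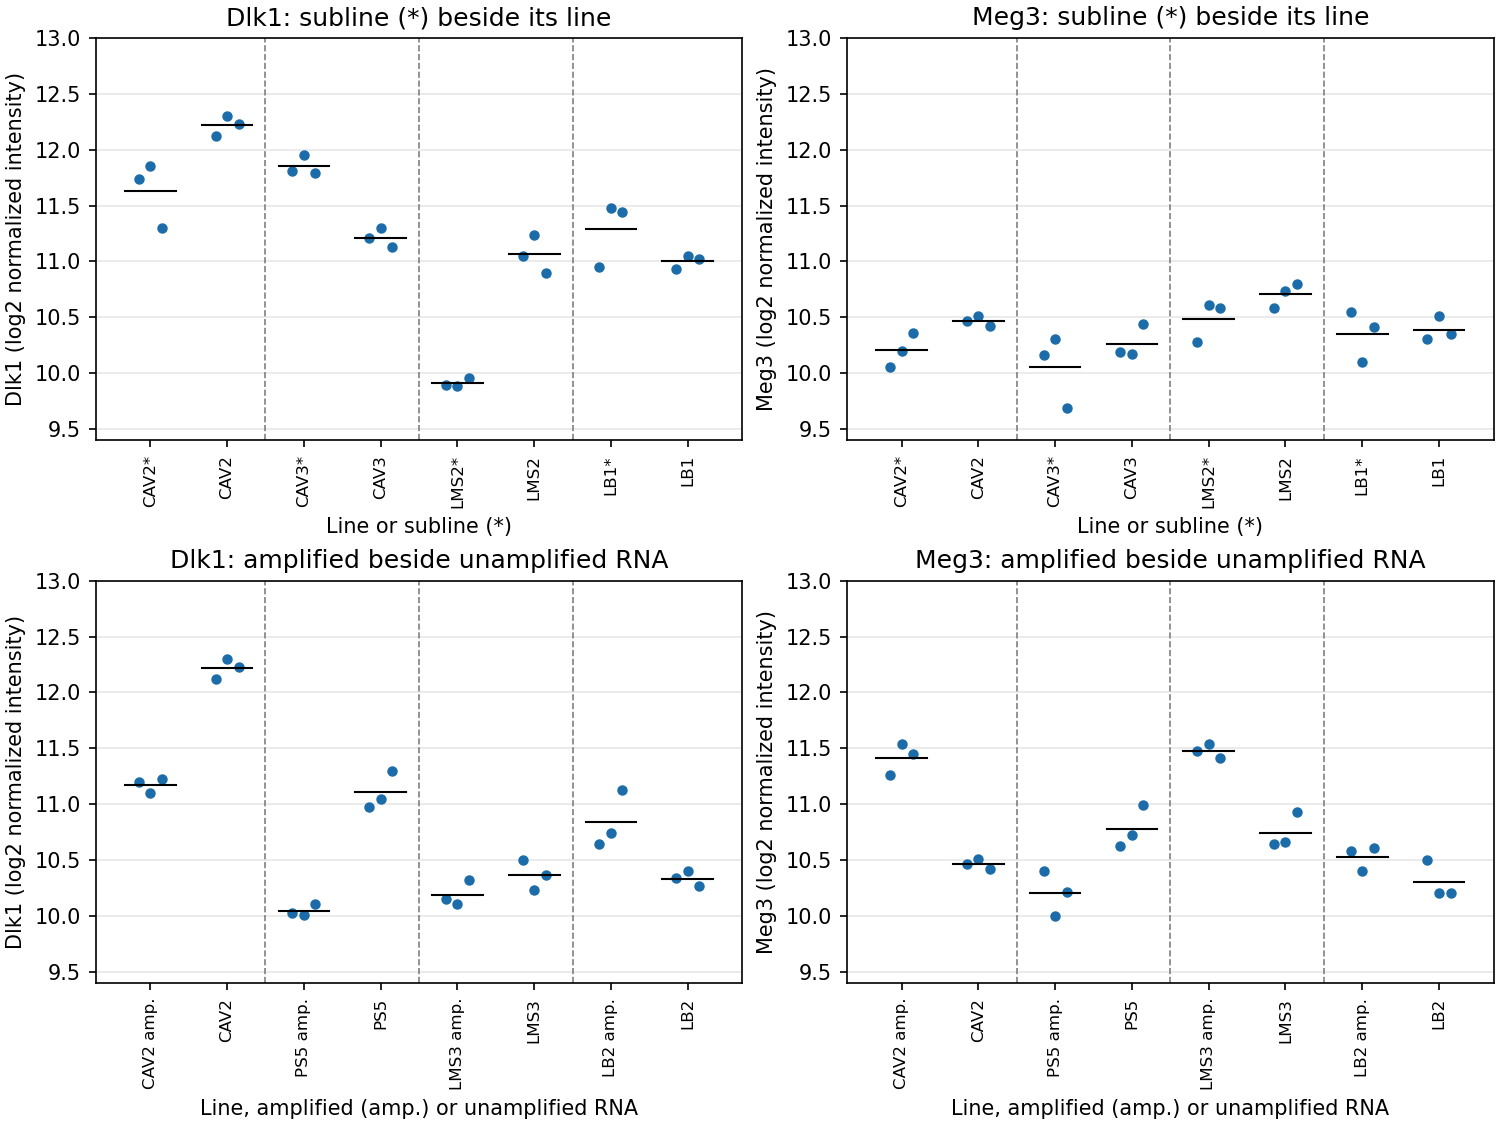
Dlk1 (left) and Meg3 (right) in single cultures (points) with group means (bars), log2 normalized intensity. In the top row each subline (*) stands left of its line, and in the bottom row amplified RNA stands left of unamplified RNA of the same line; the LMS2 subline lies 1.15 below LMS2 for Dlk1, and Meg3 overlaps in the CAV3, LMS2 and LB1 pairs.

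In the embryo, Dlk1 rose in the bud stages, while Meg3 showed no difference past the threshold on the Gtl2 probe detected throughout. Epiblasts were joined into early (cavity and prestreak, 4), streak (late midstreak and late streak, 6) and bud stages (no, early and late bud, 7). Dlk1 was at 6.14, 6.21, 7.33 and 7.84 in early epiblasts, of which 2 of 4 were detected. It was at 5.27 to 6.86 with a median of 6.66 in streak epiblasts, of which 5 of 6 were detected, and at 7.81 to 9.30 with a median of 8.79 in bud epiblasts, all 7 of them detected. Bud epiblasts thus overlapped with early ones through the no-bud embryo, at 7.81, and early and streak epiblasts overlapped widely.

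Within the bud stages Dlk1 was at 7.81 in the no-bud (E7.25 to E7.75) embryo, at 8.70, 8.55 and 8.79 in early bud and at 9.30, 9.12 and 9.08 in late bud embryos. Bud epiblasts differed from early ones by 1.88 ± 0.36 (SE; 3.68-fold, adjusted p = 0.000354), where 39% of 9604 genes passed. With the array set as a block the difference was 2.18 ± 0.39. Within the set that holds the cavity, prestreak, late midstreak and late bud embryos it was 2.29 ± 0.37 (adjusted p = 0.000422), with late bud alone for the bud stages. Streak epiblasts differed from early ones by -0.43 ± 0.37 (adjusted p = 0.602), where 7.52% of 10045 genes passed, and by -0.27 ± 0.37 within that set. As early levels are near background, these folds may understate the change. The second Dlk1 probe was detected in 0 of 17 epiblasts, so the epiblast results rest on 1 probe.

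Meg3 was detected in all 17 epiblasts on the Gtl2 probe detected throughout, which gives the levels here. It was at 10.59, 10.65, 10.06 and 10.19 in early epiblasts, at 9.47 to 11.40 with a median of 10.37 in streak and at 9.88 to 11.63 with a median of 10.24 in bud epiblasts. The 3 ranges overlapped. Its differences from early epiblasts were 0.02 ± 0.34 for streak (adjusted p = 0.985) and -0.01 ± 0.33 for bud stages (adjusted p = 0.991). Within the array set that holds all 3 periods they were -0.37 ± 0.22 and -0.35 ± 0.22. The Meg3 probe detected on 10 arrays was detected in 2 of 2 prestreak epiblasts, at 7.41 and 7.74. In late midstreak epiblasts it was detected in 3 of 3, at 6.68 to 7.41, and in no epiblast of another stage. A further Meg3 probe was detected in 1 of 2 prestreak and 2 of 3 late midstreak epiblasts, and in no other epiblast. Single stages were not tested.

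Of 13 genes tested between the bud and early stages from a list of 19 along the domain and its flanks, 4 rose and 3 fell, where 39% of all genes passed, and the median log2 difference was 0.09, against 0.10 over all genes. Besides Dlk1, those that rose were Dio3, at least 2.43-fold (detected in 6 of 7 bud and 0 of 4 early epiblasts, adjusted p = 0.000964), Eml1, a microtubule-binding protein gene upstream of Dlk1, by 1.27 ± 0.26 (adjusted p = 0.000686), and Slc25a47, a mitochondrial carrier gene, by 1.55 ± 0.35 (adjusted p = 0.00146). Rtl1 was at least 1.19-fold lower in bud epiblasts, where it was detected in 0 of 7, against 4 of 4 early ones (adjusted p = 0.00578). The dynein gene Dync1h1 fell by 1.04 (SE 0.36, adjusted p = 0.0276), and Wdr25, lower in bud stages, was detected in 0 of 7 bud and 3 of 4 early epiblasts (adjusted p = 0.000292). Markers of other cell types moved between the same stages: 3 of 3 mesoderm genes tested, 6 of 8 fibroblast and 2 of 3 visceral endoderm genes rose, while 1 fibroblast, 1 visceral endoderm and 4 of 7 pluripotency genes fell, against the 39% of all genes, and Pou5f1 was detected in 4 of 7 bud and 4 of 4 early epiblasts. The visceral endoderm gene Ttr was detected in 2 of 4 early, 2 of 6 streak and 0 of 7 bud epiblasts. Their part in the Dlk1 difference was not tested.

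The last comparison set EpiSC against the epiblast, with both amplified. Dlk1 was at 11.20, 11.10 and 11.23 in CAV2, at 10.03, 10.01 and 10.11 in PS5, at 10.15, 10.11 and 10.32 in LMS3 and at 10.65, 10.74 and 11.13 in LB2, against 5.27 to 9.30 in the epiblasts. All 12 amplified EpiSC arrays were above all 17 epiblasts. Dlk1 was higher in EpiSC by 3.68 ± 0.41 than in early (SE; adjusted p = 3.15e-07, 37.8% of 11595 genes passed), by 4.11 ± 0.38 than in streak (adjusted p = 1.79e-08, 32.5% of 11693) and by 1.80 ± 0.36 than in bud epiblasts (adjusted p = 0.000511, 45.3% of 11554). In the array set that EpiSC share with late streak, no-bud and early bud embryos, it was higher by 4.26 ± 0.44 than in streak and by 2.10 ± 0.40 than in bud epiblasts. Early epiblasts and amplified EpiSC share no set, and with the set as a block their difference was 4.20 ± 0.50.

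Meg3 was at 11.26, 11.54 and 11.45 in amplified CAV2, at 10.40, 10.00 and 10.22 in PS5, at 11.48, 11.54 and 11.41 in LMS3 and at 10.58, 10.40 and 10.61 in LB2, against 9.47 to 11.63 in the epiblasts. CAV2 and LMS3 lay near the top of the epiblast range and PS5 and LB2 inside it. EpiSC differed by 0.53 ± 0.37 from early (adjusted p = 0.27), 0.52 ± 0.34 from streak (adjusted p = 0.256) and 0.54 ± 0.33 from bud epiblasts (adjusted p = 0.187), and with the set as a block by -0.15 ± 0.41, 0.17 ± 0.32 and 0.25 ± 0.31. Fibroblast genes moved with these groups. The 17 of the list summed to 18100 to 32100 in amplified EpiSC, 1080 to 1360 in early, 1460 to 2410 in streak and 2730 to 5350 in bud epiblasts. Col1a1, Col3a1 and Lum were detected in none of the 17 epiblasts and in 8, 7 and 7 of 12 amplified EpiSC arrays. Dcn was detected in 4 of 4 early, 5 of 6 streak and 3 of 7 bud epiblasts and in 12 of 12 amplified EpiSC arrays. The part of fibroblast RNA in the Dlk1 difference was not tested.

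**Figure D5:**
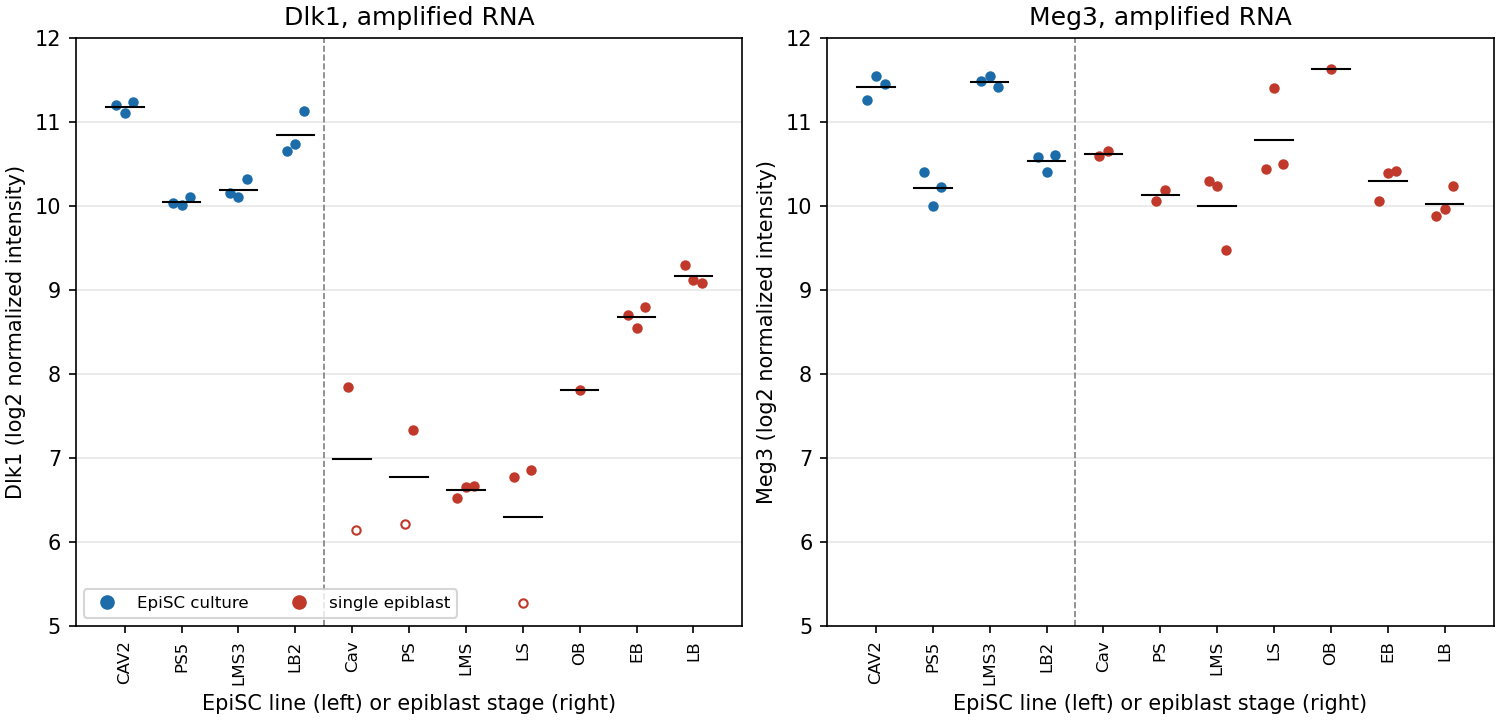
Dlk1 (left) and Meg3 (right) in amplified RNA, log2 normalized intensity, with EpiSC lines left and single epiblasts right of the dashed line, in order of stage; open points were not detected and bars are means. Dlk1 climbs to 9.30 in late bud embryos and is 10.01 or more in EpiSC, while Meg3 of both kinds lies between 9.47 and 11.63.

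Both readouts differed between amplified and unamplified RNA of the same cultures, which lie in different array sets, so that amplification and set cannot be told apart. Dlk1 was lower in amplified than in unamplified RNA of the same 4 lines by a log2 difference of -0.44 ± 0.15 (SE, adjusted p = 0.00883), and Meg3 was higher by 0.33 ± 0.14 (adjusted p = 0.031), where 78.7% of 13140 genes passed. The second Dlk1 probe, detected in 9 of 12 amplified and 12 of 12 unamplified cultures, gave -2.22 ± 0.24 (adjusted p = 8.59e-09). The second Gtl2 probe, detected in 3 of 12 and 9 of 12, gave 0.19 (adjusted p = 0.254), and a Meg3 probe detected in 9 of 12 and 5 of 12 gave 1.15 (adjusted p = 1.19e-05). A further Meg3 probe passed too (adjusted p = 3.71e-06), with 4 of 12 amplified and 0 of 12 unamplified cultures detected. By line, Dlk1 changed by -1.04 in CAV2, -1.06 in PS5, -0.17 in LMS3 and 0.50 in LB2, and Meg3 by 0.95, -0.58, 0.73 and 0.22. The sign depended on the line, and the change differed between lines for Dlk1 (interaction F test, adjusted p = 2.87e-09) and for Meg3 (adjusted p = 4.28e-08), with 80.3% of genes past that test. Without culture 1 the Dlk1 change did not pass (-0.43, adjusted p = 0.0696), nor without culture 2 (-0.41, adjusted p = 0.0625), and the Meg3 change did not pass without any 1 of the 3 cultures (0.31 to 0.35). The Meg3 change did not pass either with the culture as a replicate block (adjusted p = 0.0879) and was -0.04 ± 0.15 when amplified arrays were normalized separately, where the Dlk1 change was -0.85 (adjusted p = 1.54e-05). Levels in amplified and unamplified RNA are therefore not compared further.

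Of 17 genes that set or read imprints, tested from a list of 20, 9 were lower in EpiSC than in ESC, 0 were higher and 8 did not pass, where 26.6% of all genes passed. Their median was -0.77, against 0.03 over all genes. Zfp57, a zinc finger protein that protects imprints from demethylation, fell by 2.31 (SE 0.43, adjusted p = 0.00038), its partner Trim28 fell by 0.77 (SE 0.15, adjusted p = 0.000729), and the histone methyltransferase gene Setdb1 fell by 1.29 (SE 0.30, adjusted p = 0.00304). Of the 5-methylcytosine oxidase genes, Tet1 fell by 3.45 (SE 0.41, adjusted p = 1.47e-06) and Tet2 fell by 2.69 (SE 0.45, adjusted p = 0.000112). Dppa3 was detected in 0 of 65 EpiSC and 3 of 3 ESC cultures and was at least 46.3-fold lower in EpiSC (adjusted p = 2.82e-05). Dnmt3l, a cofactor of de novo methylation, was at 4.57 to 7.20 in EpiSC, with 20 of 65 cultures detected, against 13.81 to 13.96 in ESC (adjusted p = 1.05e-08), and its fold is limited by the background in EpiSC. The maintenance genes Dnmt1, at 0.14 ± 0.20, and Uhrf1, at 0.12 ± 0.24, did not pass. The Polycomb gene Eed fell by 1.62 (SE 0.35, adjusted p = 0.00134) and Suz12 fell by 0.94 (SE 0.18, adjusted p = 0.000486).

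The other lists of the same comparison are read against the same 26.6%. Of 14 locus and flanking genes tested, 4 were higher and 2 lower in EpiSC than in ESC, with a median of -0.03. Eml1 was higher by 3.38 ± 0.58 (SE, adjusted p = 0.000162) and the actin regulator Evl by 1.22 ± 0.36 (adjusted p = 0.0143), while the chaperone gene Hsp90aa1 fell by 1.38 (SE 0.37, adjusted p = 0.00852) and Wdr25, detected in 50 of 65 EpiSC cultures, fell by 0.65 (SE 0.19, adjusted p = 0.0138). Among 13 tested genes of Notch signalling and DLK1 processing or targets, 2 rose and 2 fell. The transcription factor gene Sox9 rose by 4.29 (SE 0.68, adjusted p = 6.93e-05) and Adam17, the protease that releases soluble DLK1, by 0.58 (SE 0.20, adjusted p = 0.0343). The Notch regulator gene Dtx1 fell by 1.69 (SE 0.41, adjusted p = 0.00361). The ligand gene Jag2, detected in 30 of 65 EpiSC cultures, fell by 0.83 (SE 0.28, adjusted p = 0.0338). The receptor gene Notch1, at 0.70 ± 0.53, and the target Hes1, at 1.30 ± 0.50, did not pass. Of 20 tested imprinted genes of other domains, 8 were higher and 2 lower, with a median of 0.95.

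Against iPSC the same lists were counted over the comparison in which 42.5% of all genes passed. In EpiSC 5 of 14 locus and flanking genes were higher and 3 lower, among them Eml1, higher by 2.75, and Hsp90aa1, lower with a log2 difference of -1.16. Of 17 imprint regulators 1 was higher and 9 were lower, and Zfp57 fell by 2.68 (SE 0.26, adjusted p = 2.30e-08). The Notch list had 5 higher and 2 lower of 13, and imprinted genes of other domains 11 higher and 3 lower of 20. Against MEF, where 44.8% passed, 3 of 14 locus genes were higher and 1 lower, 11 of 16 imprint regulators higher and 1 lower, 5 of 13 Notch genes higher and 0 lower, and 7 of 20 other imprinted genes higher and 2 lower. Single iPSC lines against ESC had 5 locus genes higher and 1 lower of 13 in iPSC1 (51.1% of all genes passed), 3 higher and 1 lower of 13 in iPSC2 (48.8%) and 0 of 12 past the threshold in the arrays labelled iPSC3 (0.0179%).

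Between bud and early epiblasts, where 39% of all genes passed, 2 of 14 imprint regulators tested rose and 2 fell, and Dnmt3l fell by 2.82 (adjusted p = 1.47e-05). Zfp57 was detected in 0 of 17 epiblasts and in 0 of 12 amplified EpiSC arrays, against 65 of 65 unamplified EpiSC cultures, so it was not well above background in amplified RNA. Of 8 Notch genes tested 3 rose and 2 fell, among them Sox9, at least 21.4-fold higher in bud epiblasts (detected in 7 of 7, against 0 of 4 early ones, adjusted p = 4.38e-11), and of 13 other imprinted genes 8 rose and 1 fell. As a check of cell identity between EpiSC and ESC, where 26.6% of all genes passed, 0 of 7 pluripotency genes were higher and 2 lower, 0 of 7 naive genes higher and 6 lower, 2 of 5 post-implantation epiblast genes higher and 0 lower, 0 of 4 visceral endoderm genes higher and 1 lower, 1 of 4 mesoderm genes higher and 0 lower, and 4 of 16 fibroblast genes higher and 0 lower.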

How the data were processed

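RNA of mouse EpiSC, iPSC, ESC, MEF and epiblasts was hybridised to 112 Illumina bead arrays. Per the labels' protocols, the TotalPrep kit was used for labelling, after a MessageAmp II amplification in the case of single epiblasts. BeadStudio is named in the submitters' processing notes, with no version. The files deposited by the authors give an intensity (linear scale) and a detection p-value per probe. Their deposited log2 values cover 31646 of the 45281 probes, correlate with their own arrays at 0.976 or more, and served as an alternative, although 4 columns fitted another culture of the same line best.

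With limma 3.58.1 (R 4.3.3, data.table, version 1.17.8), neqc removed background using the detection p-values, added 16, normalized by quantiles and took log2. Each of 28888 gene names was represented by its probe with the highest mean, and names came from RefSeq symbols (15991), synonyms (3940) or the file (8957). Genes with a detection p under 0.01 on 3 or more of the arrays compared entered lmFit and eBayes (trend, 2-sided), and p was adjusted by Benjamini-Hochberg across them. Cell types and stages were compared over line means, lines, sublines and amplification over cultures, and epiblasts as single embryos, with 4 line means of amplified EpiSC beside them. A gene undetected in a group is given as a bound, in which every array of that group stands at no less than its lowest detected signal. The procedure was tested on simulated data. Precision is limited by the number of arrays.

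The members and all lists were chosen with earlier results of these data known. Named genes are the members with each probe, members of the lists, and for each member the 5 genes with the highest Pearson r over 22 EpiSC lines and sublines. Deviations of cultures with the same number in different lines had a median r of 0.00284 (-0.368 to 0.691). Numbers were therefore not used as pairs in the main tests. In PS5, LMS3, LMS4, LMS5, LMS6 and LB3, however, culture 1 lay in another array set than cultures 2 and 3. By their titles, amplified and unamplified RNA come from the same culture, although their deviations correlated at -0.329 to 0.0583. Array sets come from clustering 13482 probes near background, with the number of sets fixed at 7. Alternatives covered the input values, background correction, scaling, filter, probe, unit, array set and libraries left out. For the epiblasts early bud 3 and late bud 3, description and title disagree on whether cells were cultured.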

Additional observations from a re-analysis of the deposited data

Results flagged for a closer look

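Groups of 4 to 7 samples were tested for a sample far from the rest, each for Dlk1 and for Meg3. Of these 12 tests 2 gave a value that stood out, and chance gives about 1 in 20. The late streak epiblast 2 had a Dlk1 level of 5.27, not detected, below the next streak epiblast at 6.52. The single no-bud epiblast had a Meg3 level of 11.63, above the next bud-stage epiblast at 10.42.

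The Dlk1 difference between subline and line was not the same in the 4 embryos (interaction F test in limma, adjusted p = 6.10e-12), at -0.59 for CAV2, 0.63 for CAV3, -1.15 for LMS2 and 0.29 for LB1. The effect of amplification differed between the 4 lines for Dlk1 (adjusted p = 2.87e-09) and for Meg3 (adjusted p = 4.28e-08).

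RNA of EpiSC9 supplied by another laboratory was on 1 array that no comparison uses. Dlk1 was detected there at 9.75 and Meg3 at 8.89, against 12.47 to 12.66 and 9.21 to 10.31 in the 3 EpiSC9 cultures. The mean of the 17 fibroblast genes was 6.99 on that array, against 8.45 to 8.59 in the cultures.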

How the results depend on the processing

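Over all alternatives for Dlk1 and Meg3, 531 values kept their direction and side of the threshold, 21 turned their sign, 15 passed and 12 no longer passed, while 228 counts of genes stayed within 1.5 times and 38 did not. Dlk1 kept its call under every alternative run for EpiSC against ESC (2.94 to 3.74), EpiSC against iPSC (2.65 to 3.43), bud against early epiblasts (1.26 to 2.29) and amplified EpiSC against early, streak and bud epiblasts (2.28 to 4.34, 2.20 to 4.54 and 1.60 to 2.71). The cause of the changes below was not tested.

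Other probes gave Meg3 differences of 1.06 and 0.48 for EpiSC against ESC, no longer past the threshold, 1.04 (past it) for EpiSC against MEF, and -1.12 (past it) for the LMS2 subline. These probes were detected in 0 of 3 ESC and 0 of 2 MEF cultures, so that background limits the first 3 sizes. In epiblasts they gave -0.55 and -0.09 for streak against early, and for amplified EpiSC -0.49 and -0.73 against early, -0.30 and -0.17 against streak, and -0.40 and 1.10 (past it) against bud epiblasts. For amplified against unamplified RNA another probe gave 0.19. Deposited values passed for Meg3 in EpiSC against MEF at 1.05, as did no background correction at 1.06, the 2 groups alone at 1.15, cultures with the line as a block at 1.15 and the shared array set at 1.02. Equal array medians gave Meg3 -0.50 in the CAV2 subline (past the threshold), Dlk1 -0.11 in the LB1 subline, Meg3 1.07 for amplified EpiSC against bud epiblasts (past it) and 0.16 for amplification, and separate normalization gave -0.04 there. For Meg3 in iPSC against ESC, cultures with the line as a block and array set as a block both gave 1.96 and passed, and without culture 1 of iPSC1 and iPSC2 Dlk1 was -0.09. With the array set as a block, Meg3 was -0.32 for streak against early and -0.15 for amplified EpiSC against early epiblasts, and within the shared set streak against early was -0.37. Without the epiblasts early bud 3 and late bud 3, Meg3 was 0.01 for bud against early.

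Shares of tested genes past the threshold moved as follows. For EpiSC against iPSC the share was 27.2% with the array set as a block, against 42.5%. For iPSC against ESC it was 0.0208% (6 genes) with no filter, 1.97% with cultures and 1.24% with the array set as a block, against 0%. For EpiSC9 against EpiSC it was 1% with equal medians, 3.36% with no filter, 0.97% with a stricter filter, 1.03% without sublines and 0.865% in the shared array set, against 1.66%. For stage of origin it was 0.00697% (1 gene) with equal medians and with EB1a and EB1b as 1 line, 0.00812% with a stricter filter, 0.0865% with no filter, 0.0707% without sublines, 0.579% with cultures and 0.16% with the array set as a block, against 0.0139%. For the arrays labelled iPSC3 against ESC it was 0.0633% with deposited values and 0.0625% with no background correction, against 0.0179%. For streak against early epiblasts it was 12.2% with equal medians, against 7.52%. In the shared array set it was 19.5% for amplified EpiSC against streak epiblasts (32.5% in all) and 29% against bud epiblasts (45.3% in all).

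With the culture as a replicate block, amplification changed Meg3 by 0.33 (adjusted p = 0.0879), no longer past the threshold, and no other member's call. Libraries were left out 1 at a time for MEF, ESC, EpiSC9 and early epiblasts, and as whole lines for iPSC and for stage. For sublines, single iPSC lines and amplification, 1 culture number was left out of every group at once. Leaving libraries out gave Meg3 0.94 to 1.37 for EpiSC against MEF and 1.45 to 2.86 for iPSC lines against ESC. It gave Meg3 -0.39 to 0.05 for the CAV3 and -0.18 to 0.15 for the LB1 subline, and 0.31 to 0.35 for amplification. Against early epiblasts it gave Meg3 -0.09 to 0.11 for streak and -0.11 to 0.09 for bud epiblasts. It gave Dlk1 0.22 to 0.43 for the LB1 subline, 0.16 to 1.20 for iPSC1 and -0.75 to 0.53 for iPSC2 against ESC, and -0.49 to -0.41 for amplification. The shares ran from 0% to 11.9% for iPSC against ESC, 1.14% to 4.08% for EpiSC9, 0% to 0.0282% for stage, 34.3% to 49.5%, 37% to 47.8%, 29.3% to 40.5% and 23.2% to 33.1% for the CAV2, CAV3, LMS2 and LB1 sublines, 32.2% to 51.9% for iPSC1, 30.3% to 50.1% for iPSC2 and 4.4% to 6.3% for streak against early epiblasts. Levels near background, such as Dlk1 in early epiblasts and 4 of the 5 Meg3 probes, limit these values.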
